A study of Mus musculus with 24 samples.

Results

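The 10 genes described here encode enzymes that put double bonds into fatty acids, lengthen them or place them into phospholipids: the fatty acid desaturases Fads1, Fads2, Fads3 and Fads6, the elongases Elovl1, Elovl2, Elovl3 and Elovl5, the stearoyl-CoA desaturase Scd2 and the acyltransferase Lpcat3. They were chosen by name from the 56205 genes of the count table, and all 10 were present and passed the filter on low counts. RNA-Seq had been run on whole livers of C57BL/6J mice, a common laboratory strain, of both sexes, which were 8 to 10 weeks old when the diets began. Over 20 weeks 12 mice (FFD) ate a high-fat diet rich in cholesterol, fructose and palm oil, used as a model of steatohepatitis, and 12 (FFD_Ctrl) ate its control diet. No allele or transgene was involved, and the model is a diet fed to intact animals. The labels do not give the sex of a library, and p-values measure the spread between these livers.

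Essential fatty acids from the diet are made longer and more unsaturated in the endoplasmic reticulum of hepatocytes. Fads2, the delta-6 desaturase, takes the first step, Elovl5 lengthens its product, Fads1, the delta-5 desaturase, then gives arachidonic and eicosapentaenoic acid, and Elovl2 carries the longest chains on towards docosahexaenoic acid. Lpcat3 places such chains into lysophospholipids. Elovl1 and Elovl3 lengthen saturated and monounsaturated chains, Scd2 makes monounsaturated ones, Fads3 acts on sphingoid bases, and Fads6 is a less studied relative. In liver, several of these genes are known targets of the sterol regulatory element binding proteins and are repressed by dietary polyunsaturated fat.

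Depth was 14468418 to 22112552 counts per library, and levels are given as CPM, counts scaled to a common library size with TMM factors. The libraries fell into 2 sets that are not conditions of the labels: 12 had 2664 to 6285 counts of Xist and 0 of the Y-linked Ddx3y, and 12 had 0 to 3 of Xist and 448 to 1016 of Ddx3y, with 6 libraries of each diet in each set. They are called here the libraries with Xist above or below 1000 counts. On both diets replicates 1 to 6 had Xist above and replicates 7 to 12 had Xist below. Anything else that went with the replicate numbers therefore cannot be told apart from the set. The liver label held, with 6 of 7 hepatocyte markers called lower on the high-fat diet and a summed level of 79440 to 129339 CPM in control and 36839 to 89533 CPM in high-fat diet libraries. Markers of monocyte-derived macrophages were called higher for 7 of 7 genes, of stellate cells and fibroblasts for 6 of 7, of cholangiocytes for 4 of 5, of Kupffer cells and of sinusoidal endothelial cells for 1 of 5 each and of T cells and B cells for 0 of 9 (0 as well by DESeq2 and limma-voom, 1 at an unadjusted p under 0.05). The adipocyte markers were not tested, at a summed level of at most 1.06 CPM in any library. Control replicate 10 stood apart, with the lowest depth, a TMM factor of 0.679 (0.851 to 1.34 in the other 23) and a mitochondrial share of 3.65% (6.04% to 8.68% in the others), so results that rest on it are given with and without it.

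Below are 3 of the RefSeq promoter windows (250 bases before to 50 after the transcription start, GRCm38.p6) for genes of the polyunsaturated pathway whose values the text compares. Windows were found for 7 of the 10 genes: Fads2, Fads3, Fads6, Elovl1, Elovl2, Elovl5 and Lpcat3. Both strands were searched for a sterol regulatory element (TCACNCCAC), an E-box (CACGTG) and a CCAAT box (CCAAT), with matches in capitals. The Fads2 window (chr19:10101454-10101753, minus strand) and the window of the first Elovl2 start (chr13:41220354-41220653, minus strand) held no match, and the Elovl5 window (chr9:77917115-77917414, plus strand) held an E-box and 2 CCAAT boxes, read as ATTGG on the printed strand.
Fads2: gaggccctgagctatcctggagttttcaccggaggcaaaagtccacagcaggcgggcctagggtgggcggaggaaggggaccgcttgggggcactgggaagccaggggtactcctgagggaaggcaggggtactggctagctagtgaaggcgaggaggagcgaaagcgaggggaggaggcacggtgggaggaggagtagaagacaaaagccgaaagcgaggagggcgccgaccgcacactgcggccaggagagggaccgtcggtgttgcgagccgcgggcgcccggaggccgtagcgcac
Elovl2: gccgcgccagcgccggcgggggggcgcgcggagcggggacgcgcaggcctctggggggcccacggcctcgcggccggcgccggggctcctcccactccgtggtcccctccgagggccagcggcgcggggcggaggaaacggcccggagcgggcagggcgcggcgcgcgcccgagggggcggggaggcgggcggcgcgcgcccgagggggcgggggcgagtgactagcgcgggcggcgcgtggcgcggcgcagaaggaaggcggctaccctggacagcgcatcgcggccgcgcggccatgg
Elovl5: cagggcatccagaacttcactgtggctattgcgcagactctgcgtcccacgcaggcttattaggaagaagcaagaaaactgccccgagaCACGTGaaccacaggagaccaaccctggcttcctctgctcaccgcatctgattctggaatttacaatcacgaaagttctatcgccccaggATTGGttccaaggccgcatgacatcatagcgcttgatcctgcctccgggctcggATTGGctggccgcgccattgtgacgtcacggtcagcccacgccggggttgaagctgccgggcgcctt
Among all 32851 mouse windows of the same length, 1.24% held the sterol regulatory element, 7.15% the E-box and 37.4% the CCAAT box. The windows of the 7 genes held no sterol regulatory element. Beside Elovl5, Lpcat3 had 4 CCAAT boxes, Fads3 had 2 and the first Elovl1 start had 1. These are matches of letters only.

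Per kilobase of annotated exon, the order of the mean levels on the control diet was Fads2 (506 ± 117 CPM per kb, SD, n = 12), Fads1 (244 ± 48.6), Elovl5 (207 ± 49.4) and Elovl2 (202 ± 45.2), then Lpcat3 (41.7 ± 6.88), Elovl3 (30.0 ± 33.6), Elovl1 (15.8 ± 2.49), Fads6 (12.3 ± 3.07), Fads3 (3.50 ± 1.86) and Scd2 (1.26 ± 0.46). The place of Elovl3 held in neither Xist set, as its control mean was 0.69 CPM per kb with Xist above 1000 counts, the lowest of the 10 genes there, and 59.2 CPM per kb with Xist below, between Elovl2 (198) and Lpcat3 (44.6). Fads1, Elovl5 and Elovl2 lay within 1 SD of each other. The 4 enzymes of the polyunsaturated pathway stood above the other 6 genes, and Fads2 was highest. On the high-fat diet Elovl5 (214 ± 71.1 CPM per kb) came before Fads1 (145 ± 54.5) and Elovl2 (118 ± 34.1), and Scd2 (5.75 ± 2.61) before Fads3 (2.58 ± 1.08).

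Between the diets 1 of the 10 genes rose (Scd2), 2 fell (Fads1 and Elovl2) and 7 did not pass the threshold, which asked for an absolute log2 fold change over 0.5 together with an adjusted p not above 0.01 in edgeR's quasi-likelihood test over all 17913 genes tested. Of all genes tested, 13.2% were called higher and 4.99% lower. Over the 10 genes the median log2 fold change was -0.27, beside -0.03 over all genes tested. With the libraries scaled by their totals alone the median of all genes lay at 0.26, a shift of 0.29, and 94.4% of all called genes were higher in place of 72.6%. Fads1, with a log2 fold change of -0.49, then missed the threshold, and Elovl1 (0.56) and Lpcat3 (0.54) passed it. Relative to the median of all genes the values under the 2 scalings were close, -0.71 and -0.75 for Fads1 and -0.74 and -0.79 for Elovl2.

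**Figure D1:**
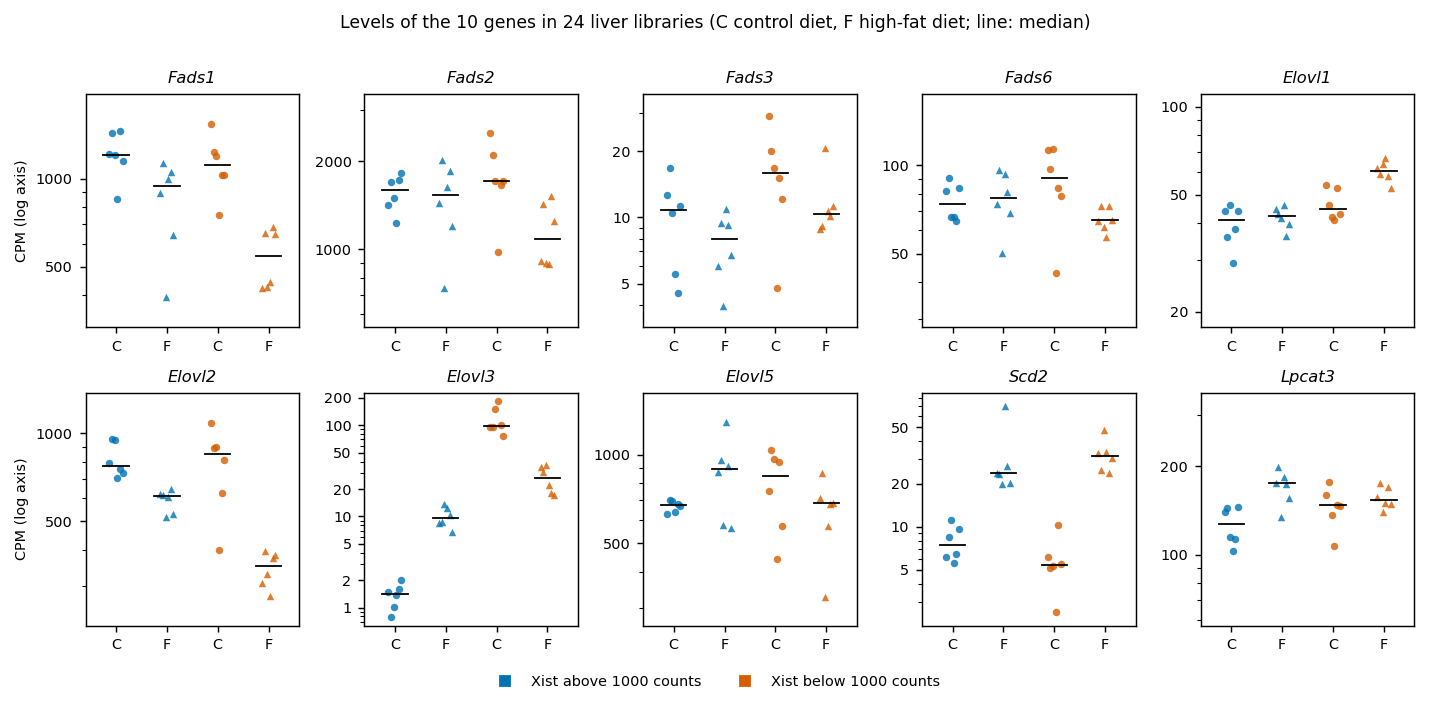
Level of each of the 10 genes in CPM (log axis) in the 24 libraries, control diet (C, circles) and high-fat diet (F, triangles), blue for Xist above and orange for Xist below 1000 counts, with a line at the median of each 6 libraries. The diets do not overlap for Scd2, and for Elovl3 the high-fat diet libraries lie above the controls in the blue set and below them in the orange set.

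Fads1 (ENSMUSG00000010663, chr19:10182888-10196877 in GRCm38, plus strand) fell. Its level was 751 CPM in the lowest, 1199 CPM in the median and 1535 CPM in the highest of the 12 control libraries, and 393, 649 and 1129.6 CPM on the high-fat diet. Each of the 12 values on that diet lay below the control median and 8 lay below the lowest control, so the other 4 reached into the control range. The mean went from 1172 ± 234 CPM (SD, n = 12) to 699.6 ± 262 CPM, a fold of 0.597 (log2 fold change -0.74, SE 0.17, adjusted p = 0.00137 by edgeR).

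Fads2 (ENSMUSG00000024665, chr19:10062765-10101746, minus strand), the neighbour that acts upstream of Fads1, was 982, 1700.1 and 2490.2 CPM in the lowest, median and highest control library and 735, 1342 and 2018 CPM on the high-fat diet. The groups overlapped over most of their range, although 10 of 12 high-fat diet libraries were below the control median. Its log2 fold change of -0.34 (SE 0.16, adjusted p = 0.0904 by edgeR) did not pass.

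The 2 genes varied together from library to library. After the means of the Xist sets were taken off, log2(CPM + 1) of Fads1 and Fads2 had a Pearson r of 0.98 over the 12 high-fat diet libraries (Spearman's rho 0.92, permutation p = 2e-05 and 6e-05, adjusted 0.00048 and 0.00072 over the 24 coefficients of 6 pairs of genes). With the 2 libraries farthest from the median left out, r was 0.96. On the control diet r was 0.88 and rho 0.74 (permutation p = 0.0009 and 0.0115, adjusted 0.0054 and 0.0346), and r was 0.73 without control replicates 10 and 4. Within the sets r was 0.74 to 0.99. Over all 24 libraries, with the means of the 4 combinations of diet and set removed, Fads2 was also the gene whose pattern was most like that of Fads1 among 13917 genes (r = 0.945), followed by Papss2 (0.878), H2-Q1 (0.874), Dlat (0.869) and Inpp5b (0.858). For Fads2 the genes after Fads1 were Sbk1 (0.876), H2-Q1 (0.855), Smarca2 (0.855) and D130043K22Rik (0.839). The scaling of a library is shared by all its genes.

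The ratio of the 2 genes within a library does not depend on that scaling, and it was lower on the high-fat diet. The log2 ratio of Fads1 to Fads2 counts was -0.50 ± 0.21 (SD, n = 12) in control and -0.94 ± 0.16 in high-fat diet libraries, so that per read of Fads2 the high-fat diet libraries held 0.738 times as many reads of Fads1. The difference of -0.44 (permutation p = 4e-05, adjusted 6e-05 over 3 ratios) was seen in 12 of 12 high-fat diet libraries relative to the control median, and 10 of 12 lay outside the control range. It was the same size in both Xist sets, -0.44 with Xist above and -0.44 with Xist below 1000 counts (exact permutation p = 0.00216 in each, the smallest that 6 against 6 allow), although the ratio itself was lower in the second set on either diet.

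**Figure D2:**
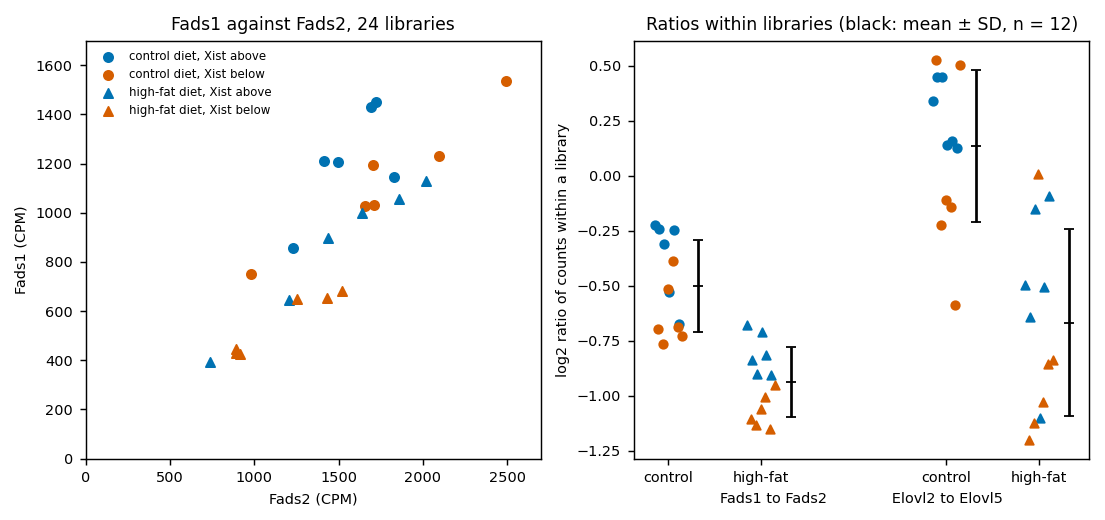
Left, Fads1 against Fads2 in CPM, 1 point per library, and right, the log2 ratio of Fads1 to Fads2 and of Elovl2 to Elovl5 counts within each library by diet, with mean ± SD (n = 12) in black. Fads1 rises with Fads2 on either diet, with the high-fat diet points (triangles) below the control points (circles), and the Fads1 to Fads2 ratio falls from -0.50 to -0.94.

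Elovl2 (ENSMUSG00000021364, chr13:41182381-41220405, minus strand) fell as well. The lowest, median and highest control libraries held 399.5, 804 and 1088 CPM and those on the high-fat diet 279, 458 and 645 CPM. The latter were all below the control median, and 6 were below the lowest control, replicate 10. Without that replicate the lowest control held 628 CPM (replicate 11), and the highest high-fat diet library held 645 CPM and the next 619 CPM. The fold was 0.584, from 800.2 ± 179 to 467 ± 135 CPM (SD, n = 12; log2 fold change -0.78, SE 0.16, adjusted p = 0.000364 by edgeR), and -0.84 on the log2 scale with control replicate 10 left out.

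Elovl5 (ENSMUSG00000032349, chr9:77917364-77984519, plus strand), the elongase one step earlier, overlapped almost wholly between the diets. It was 441, 688 and 1038 CPM in the lowest, median and highest control library and 328, 698 and 1300.2 CPM on the high-fat diet, with 6 of 12 high-fat diet libraries above the control median. The log2 fold change was 0.05 (SE 0.17, adjusted p = 0.838 by edgeR), and -0.0019 without control replicate 10. The ratio of Elovl2 to Elovl5 counts in a library fell by 0.80 on the log2 scale (from 0.14 ± 0.35 to -0.67 ± 0.42, SD, n = 12; permutation p = 0.00014, adjusted 0.00014), in 12 of 12 high-fat diet libraries relative to the control median. It was -0.77 with Xist above and -0.83 with Xist below 1000 counts (exact permutation p = 0.00216 and 0.0108).

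Elovl2 also followed Fads2 from library to library on the high-fat diet, with r = 0.81 and rho = 0.76 (permutation p = 0.00085 and 0.00711, adjusted 0.0054 and 0.0341) and r = 0.89 without the 2 farthest libraries. On the control diet r was 0.83 and rho 0.60 (permutation p = 0.00935 and 0.0567, adjusted 0.0346 and 0.105), and r fell to 0.31 without replicates 10 and 7, so the relation there rested on those libraries. It was 0.20 with Xist above and 0.95 with Xist below 1000 counts on that diet. Elovl5 showed a weaker relation on the high-fat diet, with r = 0.70 with Fads1 and 0.68 with Fads2 (adjusted permutation p = 0.0346 and 0.0422) and rho of 0.57 and 0.64 (adjusted permutation p = 0.116 and 0.077). On the control diet neither pair passed (r = 0.55 and 0.63, adjusted permutation p = 0.144 for both), nor did Elovl2 with Elovl5 on either diet (r = 0.56 on the high-fat and 0.61 on the control diet, adjusted permutation p = 0.116 and 0.169). With the 2 farthest libraries left out this r was 0.88 on the high-fat diet (without replicates 10 and 7, permutation p = 0.00793) and 0.13 on the control diet (without replicates 10 and 7, permutation p = 0.802).

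Fads3 and Fads6 did not pass the threshold. Fads3, at the head of the Fads cluster (chr19:10041569-10060110), held 4.52 to 29.1 CPM with a median of 12.4 on the control diet and 3.94 to 20.8 CPM with a median of 9.35 on the high-fat diet (log2 fold change -0.44, SE 0.26, adjusted p = 0.187 by edgeR). Fads6 (chr11:115279622-115297663) held 43.0 to 114 CPM, median 82.5, and 50.2 to 96.8 CPM, median 70.8 (log2 fold change -0.19, SE 0.13, adjusted p = 0.24). In both, 10 or 11 of 12 high-fat diet libraries were below the control median, with groups that overlapped.

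Scd2 (ENSMUSG00000025203, chr19:44293674-44306864, plus strand), a delta-9 desaturase best known from brain, was the gene that rose. The control libraries held 2.55, 6.18 and 11.2 CPM in the lowest, median and highest, from 25 to 234 counts, and the high-fat diet libraries 20.0, 25.8 and 69.8 CPM. Every high-fat diet library was above every control library, which was so for 1.48% of all genes tested. The fold was 4.52 (log2 fold change 2.18, SE 0.22, adjusted p = 1.82e-07 by edgeR), and 2.10 on the log2 scale without control replicate 10. Relative to Elovl5 counts of the same library the log2 difference was 2.17 (permutation p = 2e-05, adjusted 6e-05, the smallest that the resamples can give), again without overlap, and it was 1.51 with Xist above and 2.82 with Xist below 1000 counts.

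Scd2 shares 3.85% of its 51-base exon sequences with other genes, among them Scd1, Scd3 and Scd4, and Scd1, the main desaturase of liver, held 16299 ± 8015 CPM on the control and 23910.1 ± 9728 CPM on the high-fat diet (SD, n = 12; log2 fold change 0.55, SE 0.27, adjusted p = 0.107 by edgeR). The values of Scd2 are therefore uncertain. Per 10000 counts of Scd1 the control libraries held 1.97 to 17.7 counts of Scd2 with a median of 3.87, and the high-fat diet libraries 6.16 to 43.0 with a median of 12.4, of which 3 of 12 lay above the highest control. This ratio, added after the shared sequence was seen, differed by 1.55 on the log2 scale over all libraries (permutation p = 0.00046), by 2.49 with Xist below 1000 counts (exact permutation p = 0.00216) and by 0.60 with Xist above (exact permutation p = 0.182). With Xist above, the log2 fold change was 1.94 for Scd2 and 1.19 for Scd1 (adjusted p = 0.0264 by edgeR for Scd1). With Xist below it was 2.44 for Scd2 and 0.02 for Scd1 (adjusted p = 0.966 for Scd1). The genes most like Scd2 over the 24 libraries were Lacc1 (r = 0.799), Papss1 (0.778), Jcad (0.757), Neurl1b (0.750) and Soga1 (0.749). Scd2 and Elovl1 had an r of 0.48 with the high-fat and 0.64 with the control diet (adjusted permutation p = 0.168 and 0.0422), and the latter was 0.54 without the 2 farthest libraries (permutation p = 0.122).

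Elovl1 and Lpcat3 were somewhat higher on the high-fat diet without passing the threshold. Elovl1 (chr4:118428093-118432953) was 29.2, 43.5 and 54.1 CPM in the lowest, median and highest control library and 36.2, 49.6 and 66.7 CPM on the high-fat diet (log2 fold change 0.25, SE 0.11, adjusted p = 0.0666 by edgeR). Lpcat3 (chr6:124663027-124704418) was 103, 142 and 177 CPM and 134, 164 and 199 CPM, with 10 of 12 high-fat diet libraries above the control median (log2 fold change 0.27, SE 0.09, adjusted p = 0.0197). The end of Lpcat3 overlaps Emg1 on the other strand, which takes in 8.36% of its 51-base sequences. The study's methods name a stranded kit for RNA-Seq libraries, but whether the counting used strand is not given in the sources used here. It is thus not known whether the counts keep reads of the 2 genes apart there.

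Elovl3 (ENSMUSG00000038754, chr19:46131897-46135694, plus strand), known in mouse liver for a level that depends on sex and time of day, differed most between the Xist sets and moved with the diet in opposite directions in them. With Xist above 1000 counts the control libraries held 0.79, 1.42 and 1.98 CPM in the lowest, median and highest (16 to 43 counts), and the high-fat diet libraries 6.72, 9.52 and 13.6 CPM. With Xist below 1000 counts they held 75.9, 97.9 and 183 CPM on the control diet and 17.1, 26.3 and 36.7 CPM on the high-fat diet. The diets did not overlap in either set. With Xist above, 3.51% of all genes tested had every high-fat diet library higher, and with Xist below 9.66% had every one lower. The 2 sets did not overlap on either diet, and the share of all genes for which this holds was not counted.

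In the fit with the 4 combinations of diet and set as groups, Elovl3 rose on the high-fat diet by a fold of 7.31 with Xist above 1000 counts (log2 fold change 2.87, SE 0.27, adjusted p = 6.52e-07 by edgeR) and fell by 2.14 on the log2 scale with Xist below (SE 0.23, adjusted p = 6.15e-08). The interaction was -5.01 (SE 0.36, adjusted p = 3.37e-09 by edgeR), and Elovl3 was the only one of the 10 genes with an interaction at an adjusted p of at most 0.01, which 4.06% of all genes tested had. Between the sets Elovl3 differed by a log2 fold change of 6.41 on the control diet (SE 0.29, adjusted p = 1.74e-14) and 1.40 on the high-fat diet (SE 0.23, adjusted p = 0.000177). The fit over all libraries, with diet as its only term, gave -1.68 with an SE of 0.74 (adjusted p = 0.0719 by edgeR) and turned to 0.60 with limma-voom. The edgeR value compares pooled levels, on average 59.2 CPM on the control and 18.3 CPM on the high-fat diet. It is not the mean of the 2 set values, as the control mean was 117 CPM with Xist below and 1.37 CPM with Xist above 1000 counts. With the replicate number as a block the edgeR log2 fold change was -0.0019 with an SE of 3.32, too wide to give a direction. The genes most like Elovl3 within the 4 combinations were Hspa12b (r = 0.757), Rccd1 (0.721), Snrnp40 (0.697), Ckap2 (0.697) and Tsen54 (0.681).

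**Figure D3:**
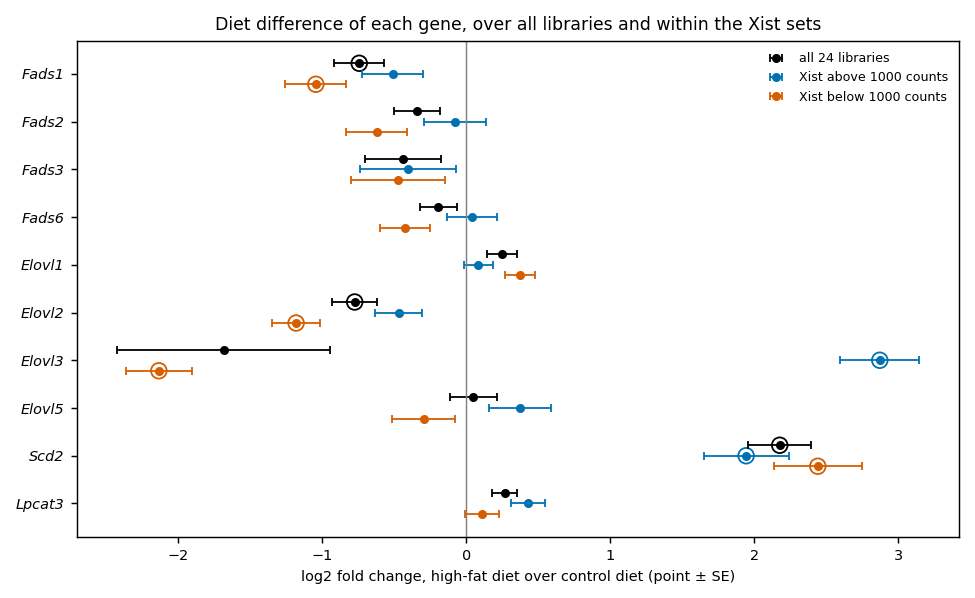
Log2 fold change of each gene, high-fat over control diet, ± SE from edgeR, for all 24 libraries (black) and within the libraries with Xist above (blue) or below (orange) 1000 counts, with a ring around values past the threshold. Elovl3 lies at 2.87 and -2.14 in the 2 sets, and Fads1 and Elovl2 lie further left in the orange set.

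The libraries with Xist above 1000 counts gave 2 calls among the 10 genes. Beside Elovl3, Scd2 rose (log2 fold change 1.94, SE 0.29, adjusted p = 0.000198 by edgeR) and 0 of the 10 genes were called lower (2 at an unadjusted p under 0.05), while 2.76% of all genes tested were called higher and 0.854% lower. Fads1 (-0.51, adjusted p = 0.117) and Elovl2 (-0.47, adjusted p = 0.06) did not pass, although every high-fat diet library (518 to 645 CPM) was below every control library (702 to 955 CPM) for Elovl2, as for 2.39% of all genes tested. Elovl3 and Scd2 were above every control, as 3.51% of genes were. Lpcat3 had 5 of 6 high-fat diet libraries above the highest control (0.43, adjusted p = 0.0187).

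Among the libraries with Xist below 1000 counts, Fads1 (log2 fold change -1.05, SE 0.21, adjusted p = 0.000278 by edgeR), Elovl2 (-1.18, SE 0.16, adjusted p = 2.66e-06) and Elovl3 fell and Scd2 rose (2.44, SE 0.30, adjusted p = 5.8e-07), where 10.5% of all genes tested were called lower and 16.0% higher. Fads1 was 423 to 683 CPM on the high-fat and 751 to 1535 CPM on the control diet, and Elovl2 279 to 398 against 399.5 to 1088 CPM. The diets thus did not overlap for these 4 genes, beside 9.66% of all genes with every high-fat diet library lower and 12.6% with every one higher. Fads2 (-0.62, adjusted p = 0.0205 by edgeR) and Fads6 (-0.43, adjusted p = 0.0487) did not pass with all libraries and did without control replicate 10 (-0.75, adjusted p = 0.00356, and -0.57, adjusted p = 0.00157). Elovl1 had 5 of 6 high-fat diet libraries (52.8 to 66.7 CPM) above the highest control (41.1 to 54.1 CPM), at a log2 fold change of 0.37 (adjusted p = 0.00489) under the fold threshold.

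The interaction of diet and set did not pass for Fads1 (-0.53, adjusted p = 0.28 by edgeR), Fads2 (-0.55, adjusted p = 0.279), Elovl5 (-0.67, adjusted p = 0.179) or Elovl2 (-0.71, SE 0.23, adjusted p = 0.0464), and for Elovl2 it passed without control replicate 10 (-0.85, adjusted p = 0.00231). Between the sets on the control diet Elovl3 was the 1 gene called, where 5.74% of all genes tested were, and 3 of the 10 had an unadjusted p under 0.05. On the high-fat diet, where 6.39% were, Elovl3 was again called higher with Xist below 1000 counts (log2 fold change 1.40, adjusted p = 0.000177 by edgeR). In the same comparison Elovl1 was higher (0.52, SE 0.10, adjusted p = 0.00109) and Elovl2 lower (-0.77, SE 0.16, adjusted p = 0.00223). Elovl1 was 36.2 to 46.3 CPM with Xist above and 52.8 to 66.7 CPM with Xist below, and Elovl2 518 to 645 and 279 to 398 CPM. How many of all genes separate the sets in this way was not counted.

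Cell markers moved along with these values. The summed hepatocyte markers had medians of 108661 CPM (control) and 74504 CPM (high-fat diet) with Xist above 1000 counts, and 85885 and 43980.2 CPM with Xist below. The summed macrophage markers had medians of 123 and 386 CPM, and 63.1 and 558 CPM, in the same order. Hepatocyte markers were thus lowest, and macrophage markers highest, among high-fat diet livers whose Xist was below 1000 counts. The medians of Fads1, Fads2, Fads6 and Elovl2 were lowest there as well, and those of the other genes described here were not. In whole liver, fewer cells of a type and less RNA per cell cannot be told apart, and the part of the markers in these results was not tested.

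The other genes of the pathway, 69 in 10 lists, gave 12 called higher and 4 called lower of 63 tested, where 13.2% and 4.99% of all genes tested were called, with a median log2 fold change of 0.003 beside -0.03 over all genes tested. Among the other elongases Elovl7 rose (from 0.34 to 3.71 CPM, log2 fold change 3.38, SE 0.44, adjusted p = 2.8e-06 by edgeR), Elovl6, which lengthens palmitate, was 170 and 110 CPM on average (-0.62, SE 0.27, adjusted p = 0.072) and Elovl4 was not tested. Of the 6 partners of the elongases in the elongation cycle only Hacd4, a dehydratase, rose (1.64, SE 0.22, adjusted p = 3.9e-06), while Hacd3, another dehydratase (-0.43, adjusted p = 0.00078), and Tecr, the reductase of the last step (-0.41, adjusted p = 0.0017), passed on the adjusted p but did not reach the fold threshold. Of the 6 cytochrome b5 genes and their reductases, which hand electrons to the desaturases, edgeR and limma-voom called 0 and DESeq2 1, and 2 had an unadjusted p under 0.05 in edgeR. Scd1 was the 1 tested gene of the other stearoyl-CoA desaturases.

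Of the long-chain acyl-CoA synthetases, which activate fatty acids, Acsl1 (940 to 586 CPM, log2 fold change -0.68, SE 0.13, adjusted p = 0.000147 by edgeR) and Acsl5 (-0.54, SE 0.12, adjusted p = 0.0012) fell and the other 2 tested were not called. With Xist above 1000 counts Acsl1 (-0.32, adjusted p = 0.166 by edgeR) and Acsl5 (-0.38, adjusted p = 0.143) did not pass. With Xist below both did (-1.05, adjusted p = 3.46e-06, and -0.73, adjusted p = 0.000911). Among the 9 other lysophospholipid acyltransferases 4 rose: Mboat1 (2.08, SE 0.48), Lpcat2 (1.61, SE 0.22), which also makes platelet-activating factor, Lpcat4 (1.42, SE 0.33) and Lpcat1 (0.87, SE 0.15) (all adjusted p at most 0.00141 by edgeR). Mean levels were low for Mboat1 (0.31 to 1.31 CPM) and Lpcat4 (1.08 to 2.94 CPM). With Xist above 1000 counts only Lpcat2 of these 4 passed (1.03, adjusted p = 0.00692 by edgeR), and with Xist below all 4 did. Of the 7 genes of peroxisomal chain shortening, the last step to docosahexaenoic acid, Acaa1b, a thiolase, rose (1580.2 to 2777 CPM, log2 fold change 0.81, SE 0.13, adjusted p = 3.08e-05).

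Among the 10 regulators that respond to sterols or polyunsaturated fatty acids, Scap (-0.69, SE 0.12, adjusted p = 7.83e-05 by edgeR), the escort of the sterol regulatory element binding proteins, and Insig1 (-0.83, SE 0.23, adjusted p = 0.00591), which retains them in the endoplasmic reticulum, fell, with Srebf1 at 0.38 (SE 0.19, adjusted p = 0.115). With Xist above 1000 counts Scap (-0.36, adjusted p = 0.0818 by edgeR) and Insig1 (-0.28, adjusted p = 0.562) did not pass. With Xist below both did (-1.04, adjusted p = 1.17e-06, and -1.51, adjusted p = 7.04e-05). Of the 13 tested genes that release or oxygenate polyunsaturated fatty acids 3 rose: the phospholipase Pla2g4a (1.37, SE 0.25), the thromboxane synthase Tbxas1 (1.57, SE 0.24) and the cyclooxygenase Ptgs1 (0.61, SE 0.16). These 3 passed with Xist below 1000 counts but not with Xist above (adjusted p = 0.0343, 0.0259 and 0.197 by edgeR). Beside the Fads genes on chromosome 19, Rab3il1 (1.16, SE 0.13) and Fen1 (0.80, SE 0.18) rose among the 5 tested neighbours. Rab3il1 passed in both Xist sets, and Fen1 with Xist above (adjusted p = 0.00352 by edgeR) but not below (adjusted p = 0.0217).

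**Figure D4:**
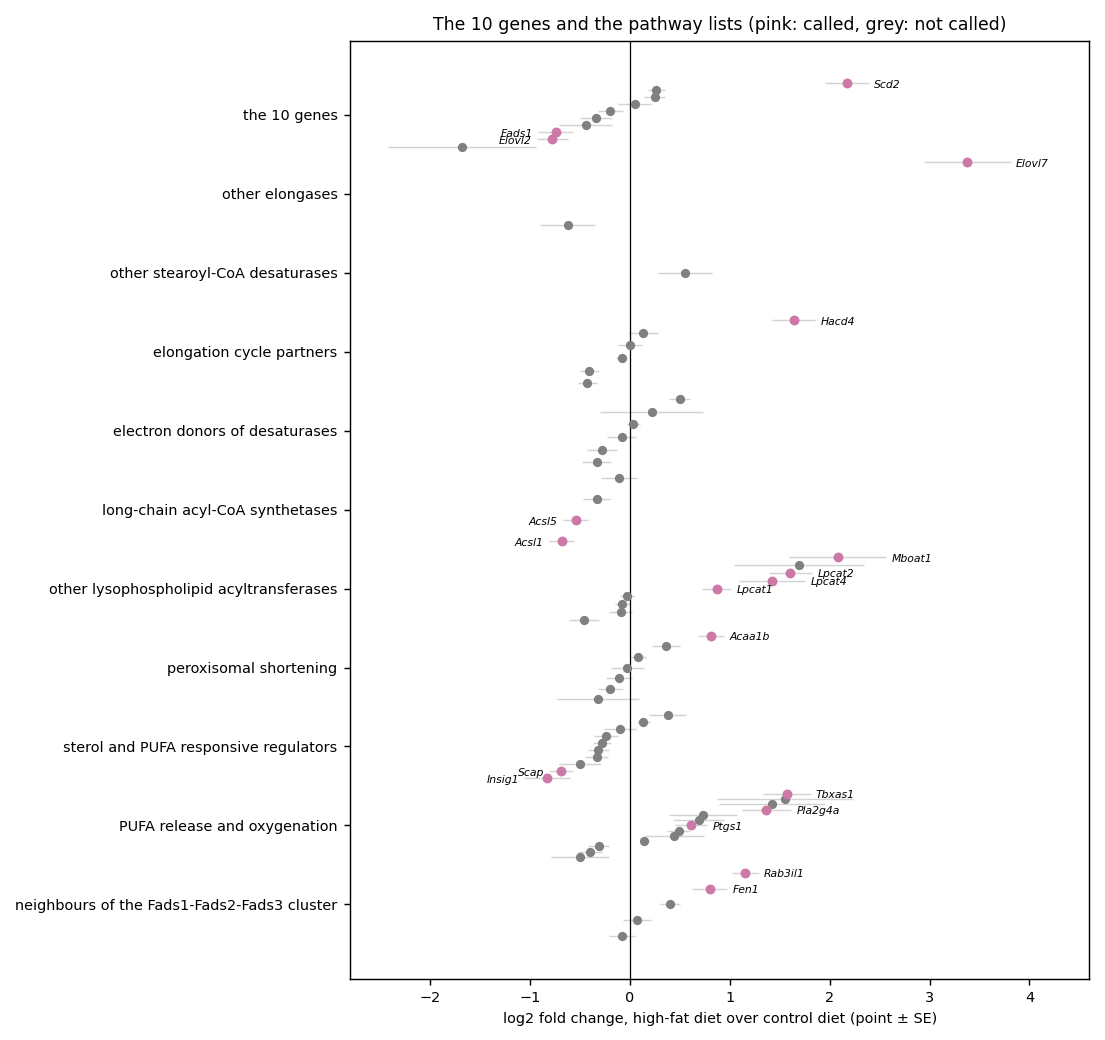
Log2 fold change, high-fat over control diet, ± SE from edgeR, for the 10 genes (top) and for the 63 tested genes of 10 pathway lists, 1 point per gene, pink where called and grey where not. Points called lower are Fads1, Elovl2, Acsl1, Acsl5, Scap and Insig1, and the acyltransferases called lie to the right.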

How the data were processed

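RNA-Seq libraries of poly(A)-selected RNA from whole mouse liver were analysed (12 per diet). The deposited table holds whole-number counts per Ensembl gene without normalization, made by the authors with STAR 2.7.3a and mm10 per the submitters' processing notes. The study's methods name the exon quantification pipeline and PISCES for quantification, beside a human reference; which program and annotation gave the mouse counts is not given in the sources used here. Columns were matched to libraries by title and diets came from the labels. Symbols, exons and coordinates came from GENCODE M21 (GRCm38, which is mm10), in which 51745 of 56205 IDs had a symbol, so the counting used another release.

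From the deposited counts, edgeR 4.0.16 under R 4.3.3 gave the log2 fold changes (quasi-likelihood, TMM, diet as the only term, Benjamini-Hochberg over 17913 genes, those detected with 1 count or more in 12 or more libraries), with the thresholds of the study's RNA-Seq methods. The SE is the absolute log2 fold change over the root of F. Xist sets entered a second fit with 4 groups. Ratios used counts plus 0.5 and permutation tests were two-sided with 100000 resamples, or exact for 6 against 6. Likeness used genes with a mean of at least 10 counts. The scripts were tested on simulated data. No libraries of a diet agreed within sampling noise (lowest chi-square per degree of freedom 10.1).

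The 10 genes, the lists and the alternatives (DESeq2 1.42.0, limma-voom of limma 3.58.1, other scalings and filters, set and block terms, libraries left out) were chosen with earlier results of these data known. All 10 genes were named, and up to 4 called genes per list. Promoter windows came from RefSeq.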

Additional observations from a re-analysis of the deposited data

Results flagged for a closer look

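Elovl3 differed between the Xist sets in its response to the diet, with an interaction of -5.01 on the log2 scale (adjusted p = 3.37e-09 by edgeR). The sets were read from Xist and Ddx3y counts and are not conditions of the labels.

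Among 40 groups of 6 libraries (10 genes, 2 diets, 2 sets), 2 held a library whose gap to the nearest other exceeded Dixon's 95% critical value for groups of 6, and chance flags about 1 in 20 groups. High-fat diet replicate 4 held 69.8 CPM of Scd2, where the other 5 of its group held 20.0 to 26.5 CPM, and without it the log2 fold change of Scd2 over all libraries was 2.01. High-fat diet replicate 9 held 20.8 CPM of Fads3, and without it the log2 fold change of Fads3 was -0.61. The causes were not tested.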

How the results depend on the processing

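The replicate block left the calls of the 10 genes as they were (Scd2 2.14, Fads1 -0.81 and Elovl2 -0.79 on the log2 scale), and equal replicate numbers were not treated as pairs, since the deviations of same-numbered libraries from the diet means correlated at -0.10 for number 9 and at 0.16 to 0.58 for the other 11 numbers, and at -0.28 to 0.31 with the means of the Xist sets removed as well. DESeq2, limma-voom, DESeq2 size factors, the 3 other filters on low counts and the Xist set as covariate also kept the counts of 1 higher and 2 lower, and turned only the direction of Elovl3, to 0.60 with limma-voom. With library totals alone 3 of the 10 genes were called higher and 1 lower (all genes 3827 and 226): Fads1 -0.49, Elovl1 0.56, Lpcat3 0.54 and Fads6 turned to 0.074, and the interactions of Fads3 and Lpcat3 turned to 0.29 and 0.013. With only the libraries with Xist above 1000 counts 2 were called higher and 0 lower (all genes 525 and 162), with Fads1 at -0.50 and Elovl2 at -0.46 below the threshold, Fads6 turned to 0.044 and Elovl3 to 2.88. With only those below, Elovl3 was called at -2.12, Elovl5 turned to -0.28 and 1430 of all genes were lower. Calling at an adjusted p up to 0.05 with no fold threshold gave 2 higher among the 10 genes (all genes 3709 and 3388), and a threshold of 1 gave 0 lower (all genes 216 lower). Restricting the test to genes with 10 counts or more in every library left 1226 genes higher. The Scd2 to Scd1 ratio was 0.60 with Xist above 1000 counts. With each library left out in turn no call of a diet difference changed, Elovl5 turned its direction without high-fat diet replicate 4 or control replicate 10 and ranged from -0.050 to 0.12, Fads1 from -0.83 to -0.69, Elovl2 from -0.84 to -0.72 and Scd2 from 2.01 to 2.26, and the interactions of Fads3 and Elovl2 ranged from -0.30 to 0.17 and from -0.85 to -0.60. Without control replicate 10, chosen after its values were seen, Fads2 (-0.75) and Fads6 (-0.57) were called with Xist below 1000 counts, and the set difference of Elovl2 on the control diet turned to 0.082. The causes were not tested. At these depths 25 counts of Scd2 in 1 library carry a large counting error.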
